A study of Sus scrofa with 6 samples.

Results

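The genes described are ACSL1, LPL, ABCA1, INSIG1 and NSDHL, which handle fatty acids and cholesterol. They were represented by every probe set whose platform annotation gave 1 of these 5 symbols and no other, which came to 8 of 23999 probe sets. The 5 genes were chosen by their signals under hypertensive and normotensive pressure in these same arrays, so their differences between the groups are given as a description, with no test. Of the 8 probe sets, 6 had a geometric mean signal over the 6 arrays at or above 48.5, the level needed for testing, which 14399 of all probe sets reached.

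Aortic valve leaflets were taken from adult female pigs, treated with collagenase to remove the endothelium, and kept overnight in medium with fetal bovine serum. In the same kind of medium, 3 samples were then held at a cyclic pressure of 0 to 80 mmHg (normotensive) and 3 at 0 to 120 mmHg (hypertensive), for 24 h at 1 Hz. The comparison asks how raised pressure alters transcript levels in the leaflet. All samples shared the animals' sex, the stripping and the culture, and no leaflet outside the pressure chamber was compared. The sample titles call the samples biological replicates, but the labels leave unsettled which samples came from the same animal. How much of the spread between arrays is technical is therefore not known.

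Long-chain fatty acids enter metabolism only after an acyl-CoA synthetase such as ACSL1 has joined them to coenzyme A. Lipoprotein lipase, the product of LPL, is secreted and frees fatty acids from circulating triglycerides. ABCA1 is the membrane transporter that hands cellular cholesterol to apolipoprotein A-I. INSIG1 holds the SCAP and SREBP complex in the endoplasmic reticulum when sterols are plentiful and is itself a target of SREBP, while NSDHL is an enzyme late in cholesterol synthesis. Deposition of lipoprotein lipid is a known feature of diseased aortic valves.

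The signal of all 8 markers of valve interstitial cells with a probe set was above the 48.5 level, with vimentin (VIM) at 23586 under normotensive pressure. All 8 had lower means under hypertensive pressure, and their summed signal was 75739 to 77627 in the normotensive and 53177 to 64794 in the hypertensive group. Of 11 markers of macrophages and other leukocytes 9 were above the level, with sums of 2497 to 4602 and 1558 to 3584. CD163 had the largest part in these sums, with geometric means of 1636 and 751. By their means, 6 of the 11 were higher and 5 lower under hypertensive pressure. Of 12 endothelial markers, with sums of 2544 to 3130 and 2140 to 4437, 6 were above it (PECAM1, TEK, ENG, ERG, SELP and ESAM). The others, CDH5, VWF, KDR, TIE1, SELE and CLDN5, were below it over the 6 arrays. The means of 6 of the 12 were higher under hypertensive pressure and those of 6 (PECAM1, VWF, TEK, ENG, ERG and ESAM) were lower. ERG was lower on every hypertensive array, at 1675, 1142 and 1780 under normotensive pressure and 899, 1019 and 973 under hypertensive pressure. CDH5, SELE and SELP were higher on every hypertensive array, although the leaflets had been treated to remove the endothelium. CDH5, which encodes VE-cadherin, was at 30.3, 12.3 and 40.5 under normotensive pressure and 68.4, 115 and 84.9 under hypertensive pressure. E-selectin (SELE) was at 1.11, 4.50 and 1.62 and at 443, 64.6 and 29.3. P-selectin (SELP) was at 95.4, 245 and 90.6 under normotensive pressure and 2296, 784 and 368 under hypertensive pressure, with geometric means of 128 and 872. None of 5 adipocyte markers (ADIPOQ, LEP, FABP4, LIPE and RETN) and none of 6 muscle markers was above the 48.5 level, and 1 of 3 blood markers was. The part of these markers in the results was not tested. The hypertensive arrays differed among themselves. The mean correlation with the normotensive arrays over the 14399 probe sets was 0.950 for hypertensive replicate 2, 0.895 for replicate 3 and 0.817 for replicate 1, and normotensive arrays correlated at 0.952 to 0.978 with each other, so values are given for each array.

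Across all probe sets, 0 of 14399 (0%) passed an adjusted p of 0.05 by limma with Benjamini-Hochberg adjustment, and 2436 had an unadjusted p under 0.05. Every hypertensive array lay above every normotensive array in 10.4% of probe sets and below in 12%. Of the 6 probe sets of the lipid handling genes at or above the signal level, those of ACSL1 and ABCA1 lay above in this way, 1 of LPL and 1 of NSDHL lay below, and the remaining 2 overlapped. Since the genes were chosen on this contrast, nothing is read from that count.

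**Figure D1:**
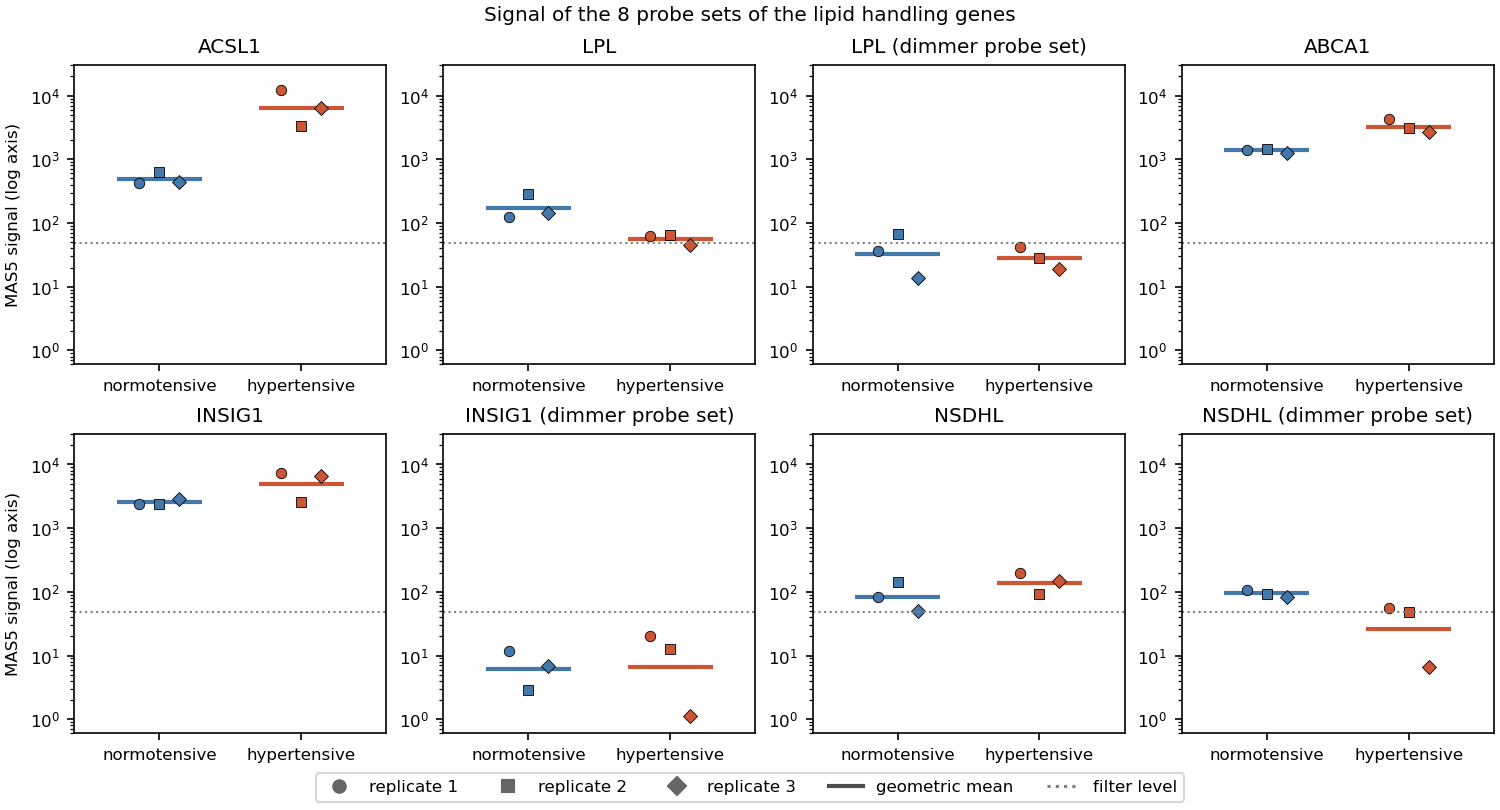
MAS5 signal (log axis) of the 8 probe sets in each array, with circles, squares and diamonds for replicates 1, 2 and 3, a bar for the geometric mean of the 3 arrays of a group and a dotted line at 48.5. ACSL1 and ABCA1 were higher on all 3 hypertensive arrays, LPL was lower by its brighter probe set, INSIG1 was higher on 2 of 3, and the probe sets of NSDHL went opposite ways.

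ACSL1 had the widest separation of the 5 genes. Its signal was 424, 637 and 437 in replicates 1, 2 and 3 under normotensive pressure, and 12476, 3300 and 6328 in the same order under hypertensive pressure. The lowest hypertensive array was thus at 5.18 times the highest normotensive array. The geometric means were 491 and 6387, a ratio of 13.02 and a log2 difference of 3.70 (SE 0.46, n = 3 per group). That difference was the ninth highest of the 14399 probe sets. The hypertensive arrays spread more than the normotensive ones, with an SD of 0.96 against 0.33 on the log2 scale. The ratio was 9.32 without hypertensive replicate 1 and 18.1 without replicate 2.

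The other long-chain acyl-CoA synthetases had smaller differences and overlapping groups. ACSL4, which prefers arachidonic acid, was at 3118, 4790 and 3241 under normotensive pressure and 15857, 4748 and 8259 under hypertensive pressure. ACSL5 was at 446, 770 and 416 and at 1957, 746 and 1263, and both of its further probe sets had the same sign. ACSL3, found on lipid droplets, was at 733, 550 and 752 and at 1390, 667 and 2129. In each of these 3 genes hypertensive replicates 1 and 3 lay above all normotensive arrays while replicate 2 lay among them. Hypertensive replicate 2 of ACSL1, at 6.73 times the normotensive mean, did not. The log2 differences were 1.23 (SE 0.41) for ACSL4, 1.23 (SE 0.42) for ACSL5 and 0.90 (SE 0.43) for ACSL3, with adjusted p of 0.265, 0.267 and 0.315 by limma. Whether the difference of ACSL1 exceeds theirs was not tested.

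**Figure D2:**
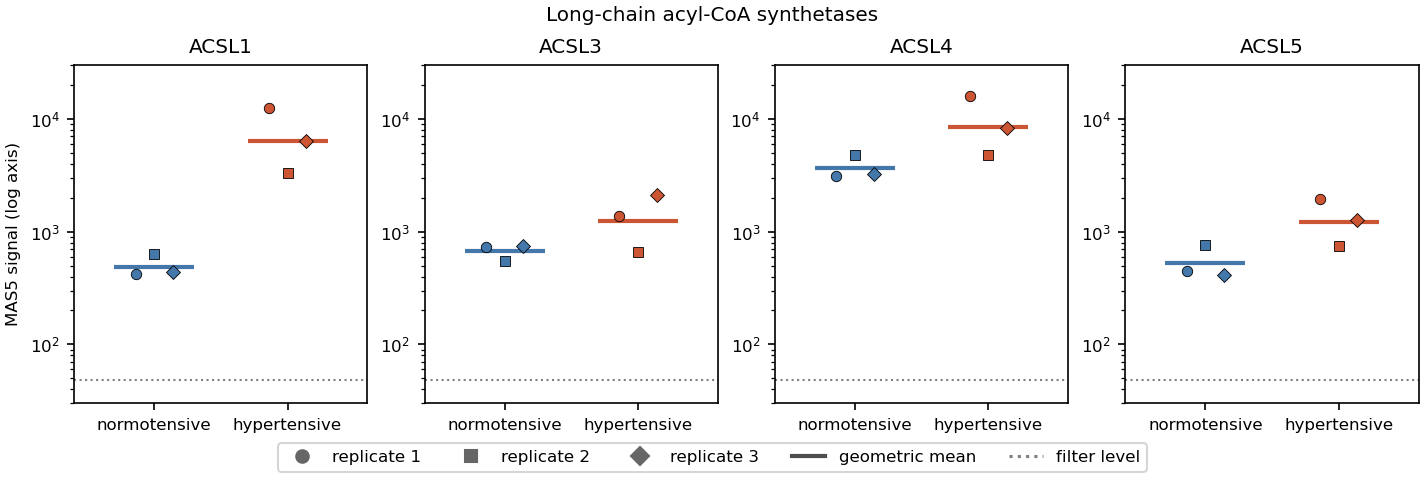
MAS5 signal (log axis) of ACSL1 and 3 further long-chain acyl-CoA synthetases in each array, with symbols for replicates, bars for geometric means and a dotted line at 48.5. ACSL1 went from a mean of 491 to 6387 with no overlap, while on hypertensive replicate 2 the other synthetases lay within the normotensive range.

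The list of fatty acid activation held 6 tested genes beside ACSL1, of which 3 were higher, 3 lower and 0 passed. Its median log2 difference was 0.35, against -0.07 over all 5271 genes tested. This median covers opposite shifts. The long-chain synthetases made up the higher members, and the lower ones were ACSS2 and ACSS3, which activate acetate and propionate, and SLC27A1, a fatty acid transporter with synthetase activity. ACSS2 was at 436, 515 and 438 under normotensive pressure and 47.5, 345 and 174 under hypertensive pressure, and SLC27A1 at 94.2, 99.6 and 116 and at 19.3, 93.3 and 28.5. In both, every hypertensive array lay below every normotensive array, which held for 12.6% of all genes tested. For SLC27A1 the gap to hypertensive replicate 2 was small, and 2 of its hypertensive values were under the 48.5 level. Without hypertensive replicate 2, 3 of these 6 genes passed in the higher direction and 2 in the lower, against 10.4% and 15.5% of all genes. The higher ones were ACSL3, ACSL4 and ACSL5, where that array was already seen to be the one lying among the normotensive arrays. Nothing is therefore read from these shares.

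LPL was lower at hypertensive pressure by its brighter probe set. The signal was 124, 284 and 142 under normotensive pressure and 62.0, 64.6 and 45.3 under hypertensive pressure. All 3 hypertensive arrays lay below all normotensive arrays, and normotensive replicate 2 was the highest. The geometric means were 171 and 56.6, a ratio of 0.330 and a log2 difference of -1.60 (SE 0.40, n = 3 per group). Without normotensive replicate 2 the ratio was 0.425. The hypertensive values lay near the 48.5 level, so the size of the difference is uncertain, and adding 64 to every signal brought it to -0.98. A further LPL probe set was below that level, at 36.6, 67.3 and 13.7 and at 42.6, 28.4 and 18.7, with overlapping groups and a log2 difference of -0.19 (SE 0.69). This dimmer probe set thus gives no separation of the groups, and its sign turned without normotensive replicate 2 or hypertensive replicate 3. In whole leaflets, fewer cells of a type and less RNA per cell cannot be told apart.

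The tested genes of lipolysis had overlapping groups. Of these 6, 2 were higher, 4 lower and 0 passed, with a median log2 difference of -0.33. The monoglyceride lipase MGLL was at 546, 265 and 382 under normotensive pressure and 59.2, 287 and 74.9 under hypertensive pressure, so that hypertensive replicate 2 lay within the normotensive range (log2 -1.82, SE 0.59, adjusted p = 0.264 by limma). The lysosomal acid lipase LIPA was at 1306 and 862, the adipose triglyceride lipase PNPLA2 at 497 and 659, and ANGPTL4, a secreted inhibitor of lipoprotein lipase, at 455 and 360, as geometric means with overlapping groups. Hormone-sensitive lipase (LIPE), at 4.95 and 3.48, lay below the level for testing. So did GPIHBP1, which anchors lipoprotein lipase on capillary endothelium, but its groups did not overlap, at 35.8, 45.6 and 35.4 and at 11.2, 26.3 and 28.5. Of the 6 tested genes of fatty acid uptake and binding, 1 was higher, 5 were lower and 0 passed, with a median of -0.48. The caveolin CAV1, whose p was the smallest there, was at 7853 and 5265 (log2 -0.58, SE 0.32, adjusted p = 0.360 by limma). FABP4, a fatty acid binding protein of adipocytes and macrophages, was below the level for testing over the 6 arrays, at 50.4 and 42.8.

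ABCA1 was higher on all 3 hypertensive arrays, and its difference had the smallest SE of the 5 genes by their brighter probe sets. Its 1 probe set read 1417, 1462 and 1264 under normotensive pressure and 4302, 3061 and 2660 under hypertensive pressure. Every hypertensive array stood apart from the normotensive arrays, the lowest at 1.82 times the highest of them. The geometric means were 1379 and 3272, a ratio of 2.37 and a log2 difference of 1.25 (SE 0.25, n = 3 per group). With 1 array left out at a time the ratio stayed between 2.07 and 2.63. Hypertensive replicate 2 was at 2.22 times the normotensive mean and replicate 3 at 1.93 times, so replicate 2 was not the lowest hypertensive array here.

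The genes around ABCA1 in cholesterol export and LXR signalling were evenly divided. Of 16 tested, 8 were higher, 8 lower and 0 passed, the median log2 difference was -0.04, and 0 lay above and 1 below the other group on every array. These shares are 0% and 6.25%, against 9.28% and 12.6% of all genes tested. LXR, a sterol-activated receptor that drives ABCA1 transcription, works as a pair with RXR. The gene of its alpha form, NR1H3, was at 172, 244 and 83.3 under normotensive pressure and 30.7, 212 and 54.8 under hypertensive pressure, with overlap. RXRB was at 239, 175 and 159 and at 77.9, 100 and 82.8 without overlap (log2 -1.12, SE 0.30, adjusted p = 0.238 by limma). RXRA, whose mean was near the level for testing, was at 49.2, 36.0 and 82.7 and at 97.0, 71.0 and 53.1, with overlap (log2 0.44, SE 0.43, adjusted p = 0.586 by limma). The means of NR1H3 (log2 -1.10, SE 0.71) and RXRB were thus lower. That of RXRA was higher by only about its SE, so its direction is uncertain. The apolipoprotein gene APOE (205 and 225) and the HDL receptor gene SCARB1 (159 and 138) had overlapping groups. NPC1, which carries cholesterol out of lysosomes and was named after its values were seen, was at 868, 858 and 872 and at 3558, 819 and 2358.

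INSIG1 was higher on 2 of the 3 hypertensive arrays. By its brighter probe set the signal was 2362, 2430 and 2914 under normotensive pressure and 7340, 2548 and 6618 under hypertensive pressure. Hypertensive replicate 2 lay inside the normotensive range, at 0.996 times the normotensive mean, while replicates 1 and 3 were at 2.87 and 2.59 times. The geometric means were 2558 and 4983, a ratio of 1.95 and a log2 difference of 0.96 (SE 0.39, n = 3 per group). The ratio was 2.72 without hypertensive replicate 2 and 1.61 without replicate 1. A further INSIG1 probe set had signals between 1.12 and 20.1 on the 6 arrays, well under the level for testing. Its log2 difference was 0.09 (SE 1.18), and the sign turned when normotensive replicate 2 was left out, or replicate 1 or 2 of the hypertensive group.

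NSDHL was not resolved, because its probe sets went opposite ways at low signal. The brighter on average was at 82.3, 141 and 50.0 under normotensive pressure and 199, 91.0 and 148 under hypertensive pressure. Its groups overlapped, with a log2 difference of 0.74 (SE 0.47, n = 3 per group). The other was at 107, 93.6 and 84.5 and at 55.0, 48.1 and 6.69. Here the groups did not overlap, the log2 difference was -1.86 (SE 0.76), and the hypertensive mean of 26.1 lay below the level for testing, so the probe set was kept through its normotensive values. Its ratio of 0.275 was 0.544 without hypertensive replicate 3.

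**Figure D3:**
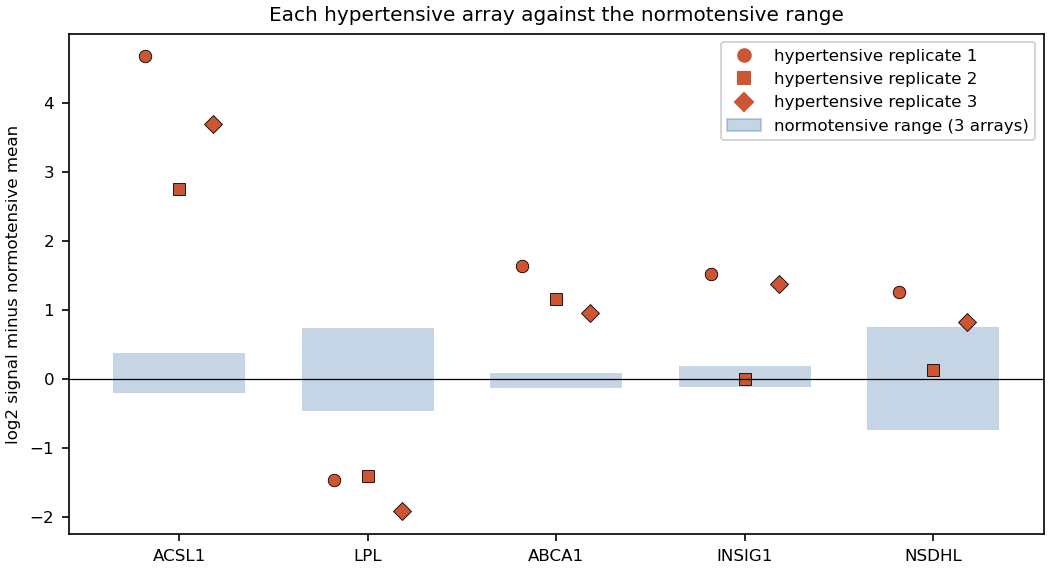
Log2 signal of each hypertensive array minus the mean of the normotensive arrays, for the brighter probe set of each gene, with the shaded box spanning the 3 normotensive arrays. Hypertensive replicate 2 stood outside the normotensive range for ACSL1, LPL and ABCA1 and within it for INSIG1 and NSDHL.

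The genes therefore differed in how far hypertensive replicate 2, the array most like the normotensive ones, took part. For ACSL1 it stood 2.75 above the normotensive mean on the log2 scale, for ABCA1 1.15 above and for LPL 1.41 below. For INSIG1 it stood at -0.01 and for NSDHL at 0.13, all by the brighter probe sets. By the other NSDHL probe set it stood at -0.98, below every normotensive array. Over all 5271 genes tested, this array lay inside the normotensive range in 41.0% of them.

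In the enzymes of cholesterol synthesis hypertensive replicate 2 was again the low one of its group. Of 9 tested, 8 had higher means, 1 was lower and 0 passed, with a median log2 difference of 0.44. Hypertensive replicate 2 was the lowest hypertensive array in all 9, against 32.8% of all genes. It lay above every normotensive array in 0 of the 9, against 1585 of all 5271 genes tested. It lay below every normotensive array in 6 of the 9 (66.7%), against 28.9% of all genes. ACAT2, which makes the acetoacetyl-CoA that starts the pathway, was at 1137, 936 and 1061 under normotensive pressure and 5373, 938 and 3610 under hypertensive pressure (log2 1.34, SE 0.58, adjusted p = 0.292 by limma). Squalene epoxidase (SQLE) was at 915, 1381 and 909 and at 3443, 646 and 2310. HMGCS1, an early enzyme of the pathway, was at 1495, 2012 and 1774 and at 3557, 886 and 2491. In each of these 3 enzymes hypertensive replicate 1 was the highest array and replicate 2 the lowest hypertensive one. Without hypertensive replicate 2, 7 of 9 enzymes lay above every normotensive array, when 24.1% of all genes did so, and 4 passed (ACAT2, FDPS, SQLE and SC5D), when 10.4% of all genes passed in the higher direction. Leaving out the array already seen to be lowest in all 9 can only raise their hypertensive means, so nothing is read from these shares. Without hypertensive replicate 1, 0 of 9 lay above (11% of all genes) and 0 passed (0% of all genes). The list was chosen with earlier results of these arrays known and is no independent support for INSIG1.

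**Figure D4:**
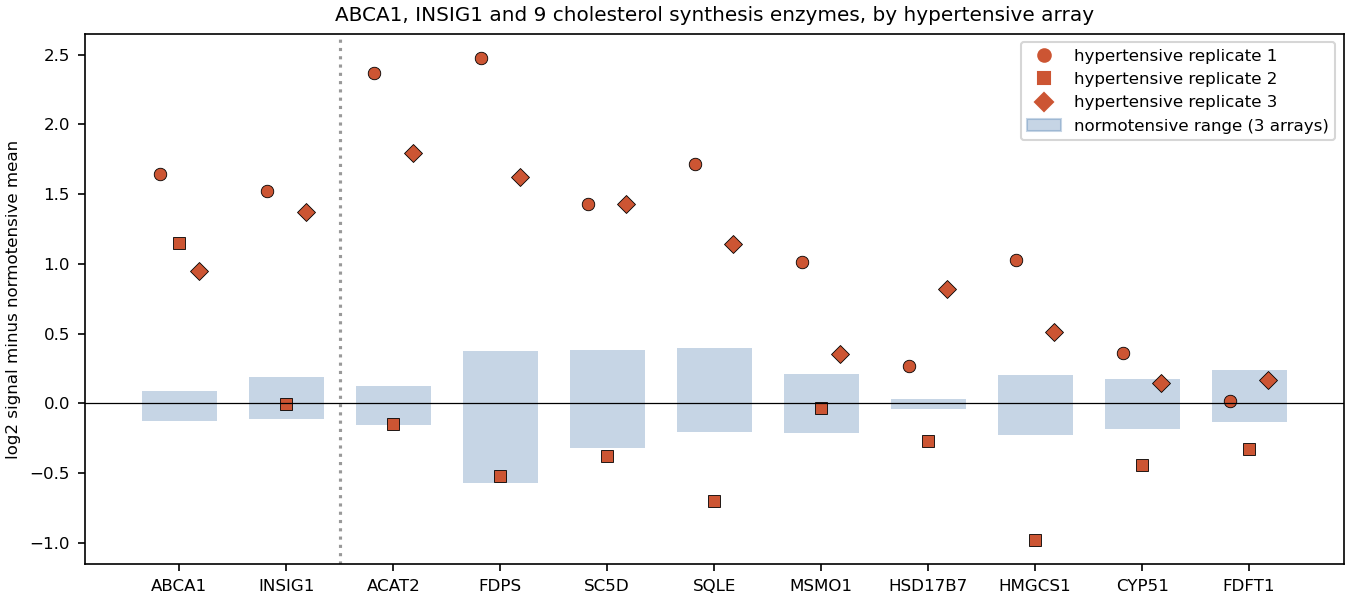
Log2 signal of each hypertensive array minus the normotensive mean for ABCA1, INSIG1 and 9 enzymes of cholesterol synthesis, with the shaded box spanning the 3 normotensive arrays. In INSIG1 and in all 9 enzymes hypertensive replicate 2 was the lowest of the 3 hypertensive arrays, and in ABCA1 it was not.

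The regulators that INSIG1 acts on, and its paralog, had overlapping groups. Of 5 tested genes of sterol sensing, 2 were higher, 3 lower and 0 passed, with a median log2 difference of -0.01. The escort protein gene SCAP was at 198 and 222, SREBF2, which encodes the SREBP of cholesterol synthesis, at 245 and 244, and the paralog INSIG2 at 1631 and 1275. Their log2 differences were 0.16 (SE 0.28), -0.01 (SE 0.28) and -0.35 (SE 0.29). SREBF1 lay below the level for testing, at 13.3 and 29.1. Of 7 tested genes of fatty acid synthesis and desaturation, 4 were higher, 3 lower and 0 passed. The desaturase SCD, another SREBP target, was at 3756 and 3798 with overlapping groups. FASN was at 278 and 412 with overlap and a further probe set of opposite sign, and malic enzyme ME1 at 1168 and 641 without overlap, again with a further probe set of opposite sign.

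Genes of fatty acid oxidation, a list of mostly mitochondrial enzymes that also held regulators such as PPARD and PDK4, had mostly lower signal. Of 19 tested genes of fatty acid oxidation, 14 were lower and 5 higher, the median log2 difference was -0.55, and 0 passed. Every hypertensive array lay below every normotensive array in 9 of the 19, or 47.4%, against 12.6% of all genes tested. Without hypertensive replicate 1 it was again 9 of 19 (14.5% of all genes). Leaving out replicate 2 gave 12 of 19 (32.2% of all genes). With that array left out, 6 lower genes (31.6%) and 2 higher genes (10.5%) passed the threshold, against 15.5% and 10.4% of all genes. Since replicate 2 was already seen to be the array most like the normotensive ones, nothing is read from the shares without it. This list too was chosen with earlier results of these arrays known, so its counts are a description only. The 9 genes below on every array with all arrays kept included the receptor gene PPARD, at a ratio of 0.613. They also included ETFA, where the ratio was only 0.944. Both were named after their values were seen. The thiolase ACAA2 was at 670, 1035 and 693 under normotensive pressure and 117, 300 and 384 under hypertensive pressure (log2 -1.72, SE 0.46, adjusted p = 0.237 by limma). HADH, named after its values were seen, was at 6039, 6570 and 6411 and at 834, 4131 and 2609, and the carnitine carrier SLC25A20, also named afterwards, at 391, 440 and 318 and at 102, 259 and 172. CPT1A, the carnitine transferase that admits fatty acids to the mitochondrion, went the other way. It was at 681, 627 and 832 and at 2432, 759 and 2065, with hypertensive replicate 2 inside the normotensive range (log2 1.14, SE 0.44, adjusted p = 0.278 by limma).

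Genes of lipid droplets and triglyceride synthesis were divided, with 4 of 10 higher, 6 lower and 0 passed. AGPAT1, which adds the second acyl chain to glycerol phosphate, was at 396, 341 and 361 under normotensive pressure and 130, 213 and 140 under hypertensive pressure (log2 -1.22, SE 0.30, adjusted p = 0.235 by limma). The droplet coat gene PLIN2 was at 3662, 1463 and 3048 and at 1185, 1606 and 1624, with overlap. In all, 84 lipid genes other than the 5 were tested, of which 37 were higher and 47 lower. Adjusted p by limma ran from 0.235 to 0.994, and the median log2 difference was -0.08, against -0.07 over all genes. On every array 0 lay above and 15 (17.9%) below the normotensive group, against 9.28% and 12.6% of all genes. Of these 15, 9 were genes of fatty acid oxidation, so the share does not describe lipid genes in general. Without hypertensive replicate 2, 11 (13.1%) passed in the higher and 16 (19.0%) in the lower direction, close to the 10.4% and 15.5% of all genes.

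**Figure D5:**
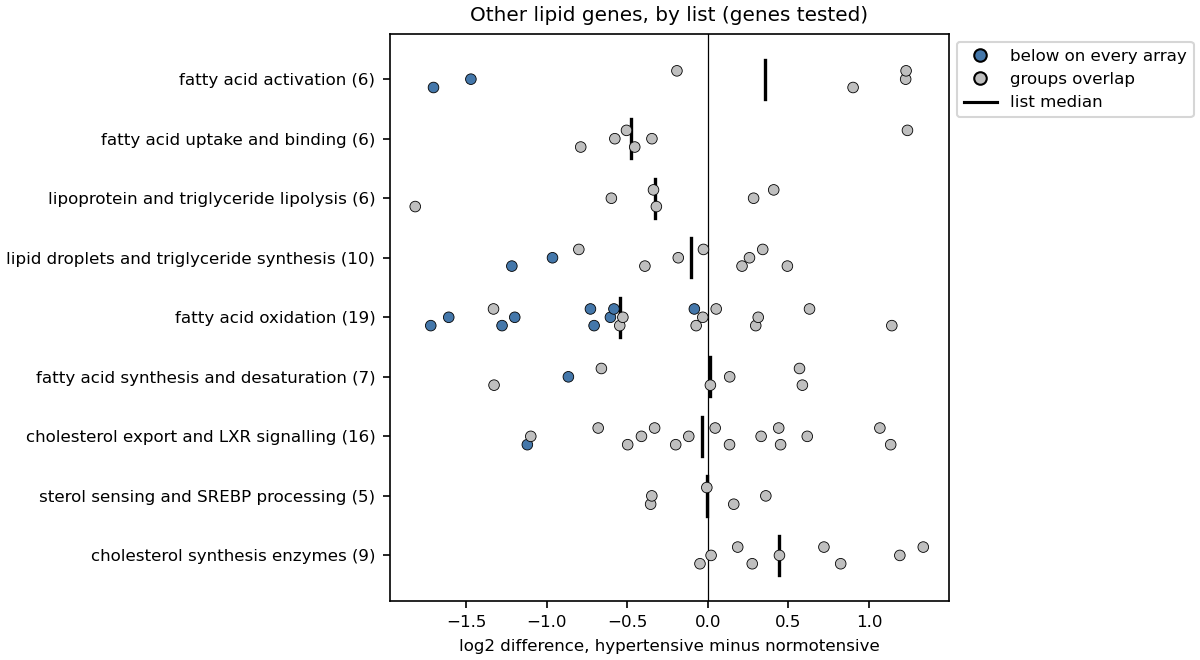
Log2 difference between hypertensive and normotensive means for each of the tested genes of 9 lipid lists, without ACSL1, LPL, ABCA1, INSIG1 and NSDHL, with the list median as a bar. Points in blue had every hypertensive array below every normotensive array, which held for 9 of 19 genes of fatty acid oxidation.

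For each of the 5 genes, the genes with the most similar array profile were sought among 5266 others, by the root mean square distance over the 6 arrays between log2 signals counted from each gene's normotensive mean. Nearest to ACSL1 were TAP1, UBD and FAM26F at distances of 0.31, 0.41 and 0.49, and no other gene lay within 0.5. Nearest to ABCA1 were CEBPB, IFNAR2 and PIM3 at 0.13, 0.15 and 0.16, with 302 genes within 0.5. For LPL they were SH3BGR, C7 and SORD at 0.25, 0.28 and 0.31, with 34 genes within 0.5. For INSIG1 they were STARD7, SLC35B3 and PPTC7 at 0.10, 0.11 and 0.14, and for NSDHL BUD23, HM13 and ITFG2 at 0.16, 0.19 and 0.21, with 568 and 482 genes within 0.5. The profile of ACSL1 thus had few near neighbours on this measure, which also counts the size of the difference, and that of INSIG1 had many.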

How the data were processed

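Biotin-labelled cRNA of 6 samples was read on Affymetrix porcine arrays, 3 per group. The deposited values are linear signal intensities, 1 per probe set and array, made by the authors with GCOS and MAS5, per the submitters' processing notes. No version of either is given in the sources used here. On each array, the 2% trimmed mean came to 500.11 to 500.131, so a common scaling precedes the values and would hide a shift shared by most transcripts. Present and absent calls were not used, and precision is limited by having 3 arrays per group.

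Of 24123 probe sets, 124 controls were left out. The platform annotation gave 1 symbol for 10069, several for 198 and none for 13732. Of the 10069, 9961 matched RefSeq by gene identifier, and 0 symbols changed. Intensities were taken to log2 without a pseudocount. Probe sets with a geometric mean over the 6 arrays at or above the 40th percentile (14399) were fitted with limma 3.58.1 in R 4.3.3 (lmFit, eBayes with an intensity trend, 2-sided, Benjamini-Hochberg over all kept probe sets, threshold 0.05), and for 5271 genes the brightest probe set was taken. Means are geometric, SE is that of the fit, and probe sets below the level took theirs from a fit on all probe sets. The fit was tested on simulated data.

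The members, lists and rules were chosen with earlier results of these data known. The genes named were all probe sets of the 5 genes, of each list the gene of smallest p and a fixed set of central genes, and the 3 genes nearest to each member. Any other gene was named after its values were seen. Some genes of that set, CD36, ABCG1 and IDI1 among them, were not analysed here. The alternatives were quantile normalization, a block for the replicate number, no filter or the 60th percentile, pseudocounts of 16 and 64, no trend, array weights, other probe sets and each array left out.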

Additional observations from a re-analysis of the deposited data

How the results depend on the processing

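The log2 differences of ACSL1 and ABCA1 moved by less than the spread between replicates under every alternative run, from 3.22 to 4.18 and from 1.01 to 1.40. That of LPL was -0.98 with a pseudocount of 64 and -0.19 by its other probe set, that of INSIG1 was 0.090 by its other probe set, and that of NSDHL turned to -1.86 by its other probe set. The cause was not tested. Under the other alternatives these 3 kept their sign. The number of probe sets past the threshold, 0 in the fit reported, was 5639 with array weights. The weights were 0.289, 0.195 and 2.38 for hypertensive replicates 1, 2 and 3, and 6.96, 0.931 and 1.15 for the normotensive ones. The weighted fit thus rested mostly on hypertensive replicate 3 and normotensive replicate 1. With each array left out the number was 0 to 3513, the 3513 without hypertensive replicate 2 and 1 without normotensive replicate 2. Probe sets whose groups did not overlap numbered 3234, and 3833 to 7915 with 1 array left out, when fewer arrays have to be separated. Of the other lipid genes, 0 to 27 passed with 1 array left out, the 27 (32.1%) without hypertensive replicate 2, when 25.9% of all genes passed. With array weights, a setting added for these genes after seeing the data, 41 (48.8%) passed, against 40.7% of all genes. The median of fatty acid activation was -0.18 with a pseudocount of 64, that of fatty acid synthesis -0.32 with the 60th percentile filter and that of lipid droplets 0.09 without normotensive replicate 1. With the replicate block 0 probe sets passed. Deviations of same-numbered arrays correlated at 0.06, 0.07 and 0.23, so the numbers were not taken as pairs, although each array correlated best with its own number. Low signal limits LPL and NSDHL.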

Other observations

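Some lipid genes lay below the level for testing and still had groups that did not overlap. They were chosen after their values were seen and have no test here. SLC27A6, a fatty acid transporter of heart, was at 114, 116 and 114 on the normotensive arrays and at 2.20, 36.7 and 21.1 on the hypertensive arrays, so its low hypertensive values took it below the level. PPARGC1A, a coactivator of mitochondrial genes, was at 4.10, 8.99 and 13.0 and at 1.76, 1.88 and 2.08, and FABP7 was at 11.3, 2.03 and 10.1 and at 18.1, 32.8 and 21.8. Apart from the normotensive values of SLC27A6, these signals are all under 48.5, where the size of a ratio has little meaning.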
